A study of Rattus norvegicus with 14 samples.

Results

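The regions described here were the most densely tagged of a Methyl-Seq profile of the rat hippocampus. They were selected on measured values. For every region on chromosomes 1 to 20 that was shorter than 2000 bp, the tags of all 14 animals were summed and divided by the length of the region, and the regions in the top 1 percent of this density were kept. This gave 2923 of the 292276 regions that met the conditions on chromosome and length, and 2923 of the 310070 regions in the deposited table. The tags of all groups were added together, so the selection used no contrast between groups. A high level in a single group could still carry a region near the limit past it.

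In Methyl-Seq, fragmented genomic DNA is captured on beads that carry a methyl-CpG binding protein and the captured fragments are sequenced. The number of tags, which are aligned short reads, therefore rises with the number of methylated CpG sites in a stretch of DNA and with the number of copies of that stretch in the genome. Most CpG sites of the mammalian genome are methylated, and the bulk of methylated CpGs lies in repeats, gene bodies and intergenic DNA, whereas CpG islands at active promoters are mostly free of methylation. Reads that aligned to the same place in an animal had been removed before counting, so that a base pair could add at most 2 tags in an animal, 1 for each strand.

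Hippocampal DNA came from male Wistar rats, an outbred stock, with 1 library for each animal. The CTRL group (5 animals) received methyl scopolamine and saline. The PILO group (4 animals) received methyl scopolamine and pilocarpine at 340 mg/kg, a muscarinic agonist, which induced status epilepticus that was later stopped with diazepam, and animals without status epilepticus after the first injection were given a further, lower dose. The PILO+KD group (5 animals) was treated like PILO and fed a high-fat ketogenic diet from status epilepticus onwards. The observation period was 84 days. No group received the diet without pilocarpine, so an effect of the diet alone cannot be told apart from its effect in epileptic animals. The dissected dorsal hippocampus is a mixture of cell types, and a change in methylation cannot be told apart from a change in the mixture.

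Total tags ranged from 6972700 to 12391666 per animal. In the densest regions 2 libraries stood apart. Of the 14 animals, PILO+KD replicate 1 had the highest level in 2093 of the 2923 densest regions, and PILO replicate 3, the library with the most tags, had the lowest level in 1059 of them. According to the labels the libraries were sequenced on 4 flow cells, of which the largest held 3 CTRL, 3 PILO and 2 PILO+KD libraries. PILO+KD replicate 1 was not on the largest flow cell, and PILO replicate 3 was. The positions of genes, exons, CpG islands and repeats in rn4, the genome build of the table, were not used here, so that regions are given by position only.

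The density of the selected regions ranged from 2.42 to 17.1 summed tags per bp, with a median of 2.95. The median over all regions that met the conditions was 0.225 tags per bp. The selected regions covered 1.69% of the base pairs of the table and held 8.68% of its tags. They were longer than the others, with a median of 1129 bp against 561 bp, and 65.3% of them were 1000 bp or longer against 11.7%. Their tag sums ranged from 767 to 30463 (median 3377). The lowest count of any of these regions in any animal was 27 tags. Densities of 5 tags per bp or more were reached by 163 regions, and densities of 10 or more by 13.

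The region of highest density was chr2:61089012-61090793 (1781 bp), with 30463 tags in all. It was followed by chr10:29081856-29082875 with 14.04 tags per bp, chr1:191883878-191885553 with 13.4, chr2:184996325-184997387 with 13.3, chr6:91379224-91381113 with 11.9, chr3:148550423-148551819 with 11.6, chr14:103107628-103109068 with 11.6 and chr4:111616351-111617695 with 10.9. All 8 of these regions were in the own top 1 percent of each of the 14 animals. After the 13 regions at 10.2 tags per bp or above came a gap, since the next region had 8.87 tags per bp.

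At the lower border the densities were continuous. Just inside the limit lay chr6:99081576-99083192, chr12:12291994-12293227 and chr7:135058821-135060792, at 2.4177, 2.41768 and 2.41755 tags per bp. The first regions outside it were chr12:33606938-33608061, chr5:158751544-158752775 and chr11:43763846-43764307, at 2.41674, 2.41673 and 2.41649 tags per bp. The last of these held from 0 tags in PILO replicate 4 to 152 tags in PILO+KD replicate 1. A count of 0 in that library allows a level of up to 0.462 CPM (tags scaled to a common library size by the TMM method).

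Densest regions were found on all 20 autosomes, with unequal shares. They made up 1.49% of the regions of chromosome 20 and 1.38% of those of chromosome 16, and 0.603% and 0.616% of those of chromosomes 3 and 10. On chromosome 20 they held 17.2% of the tags of the chromosome, on chromosome 3 7.27%. Another selected region lay within 10000 bp of 794 regions (27.2%), and 368 runs of neighbours at this distance were found, the longest with 8 regions. Within 1 Mb of the first or last region of a chromosome lay 2.22% of the densest regions and 1.02% of all regions that met the conditions.

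The largest accumulation was on chromosome 20 between 38 and 39 Mb, where 38 of 76 regions (50.0%) were among the densest, with a median density of 4.54 tags per bp. Chromosome 16 carried 19 densest regions between 27 and 28 Mb, 16 between 20 and 21 Mb and 14 between 21 and 22 Mb. Chromosome 14 carried 15 between 49 and 50 Mb, and chromosome 20 a further 12 between 36 and 37 Mb. In the chromosome 20 window from 38 Mb the median SD of log2 CPM within groups was 0.171, and the median log2 fold changes were 0.0067 for PILO versus CTRL, -0.021 for PILO+KD versus CTRL and -0.030 for PILO+KD versus PILO. The chromosome 14 window had median log2 fold changes of 0.171, 0.117 and -0.039 for the same contrasts. No window was tested.

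Rankings from single groups overlapped widely with the ranking from all animals. Since the tags of each group were part of the sum that selected the regions, these overlaps describe the selection and do not test it. When the density was computed from CTRL tags alone, 2747 of the 2923 regions (94.0%) were again in the top 1 percent. It was 2747 with PILO tags alone and 2800 (95.8%) with PILO+KD tags alone, and 2526 regions (86.4%) were in the lists of all 3 groups. The lists of CTRL and PILO, of equal length, had 2610 of 2923 regions (89.3%) in common, those of CTRL and PILO+KD 2655, and those of PILO and PILO+KD 2692. Regions that dropped out of a list stayed close to the limit. Of the CTRL list, 2919 regions were within the top 2 percent of PILO and 2918 within the top 2 percent of PILO+KD.

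Single animals gave a similar picture with more exchange at the border. The own top 1 percent of an animal held between 74.5% (PILO+KD replicate 4) and 88.6% (PILO replicate 5) of the densest regions. In all 14 animals it held 1342 of them (45.9%), in at least 10 animals 2184 (74.7%), and no region was in the own top 1 percent of fewer than 3 animals. Lists of 2 animals of the same group shared a median of 77.1% of their regions (26 pairs, 60.0% to 84.8%), and lists of 2 animals of different groups a median of 78.7% (65 pairs, 57.2% to 86.0%). Leaving 1 animal out of the tag sum kept between 2850 and 2901 of the 2923 regions.

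In the 13 regions at 10 or more tags per bp, unscaled tags varied little with the size of the library. In chr2:61089012-61090793 the CTRL animals had 2360, 2070, 1862, 2198 and 2245 tags (replicates 1 to 5). The PILO animals had 2112, 2325, 2160 and 2154 tags (replicates 2 to 5), and the PILO+KD animals 2217, 2076, 2047, 2347 and 2290 tags (replicates 1 to 4 and animal 211). The highest count was 1.27 times the lowest, whereas the largest library had 1.78 times the tags of the smallest. PILO replicate 4, the smallest library, and PILO replicate 3, the largest, had 2160 and 2325 tags in this region. After scaling, the same counts became 333 and 191 CPM, the highest and the lowest level of the 14 animals.

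This pattern graded with density. In the 13 regions at 10 or more tags per bp the median slope of log2 tags on log2 total tags across the 14 animals was 0.201 (range 0.104 to 0.348), where a slope of 1 means that tags grow in proportion to the library. It was 0.50 in the 150 regions between 5 and 10 tags per bp, 0.596 in the 1193 regions between 3 and 5, and 0.663 in the 1567 regions below 3. Over all 2923 densest regions the median slope was 0.626, and the highest count of a region was 1.73 times its lowest as a median. Outside the densest regions it was 0.761 in the 11690 regions ranked between 1 and 5 percent, 1.10 between 5 and 25 percent and 1.70 in the tested regions of the lower 75 percent. These slopes describe 14 libraries and share the same totals, and no test was applied. The unscaled tags of an animal reached at most 1.33 per bp in any densest region, against the 2 tags per bp that the removal of duplicate reads allows. The part of duplicate removal in these slopes was not tested.

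In the 13 regions at 10 or more tags per bp unscaled tags were steadier between animals than CPM, with a median SD over the 14 animals of 0.0926 for log2 tags and 0.225 for log2 CPM. All 13 had the smaller SD before scaling. The same held for 1769 of all 2923 densest regions (60.5%), and for 10.1% of tested regions in the lower 75 percent of densities.

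**Figure D1:**
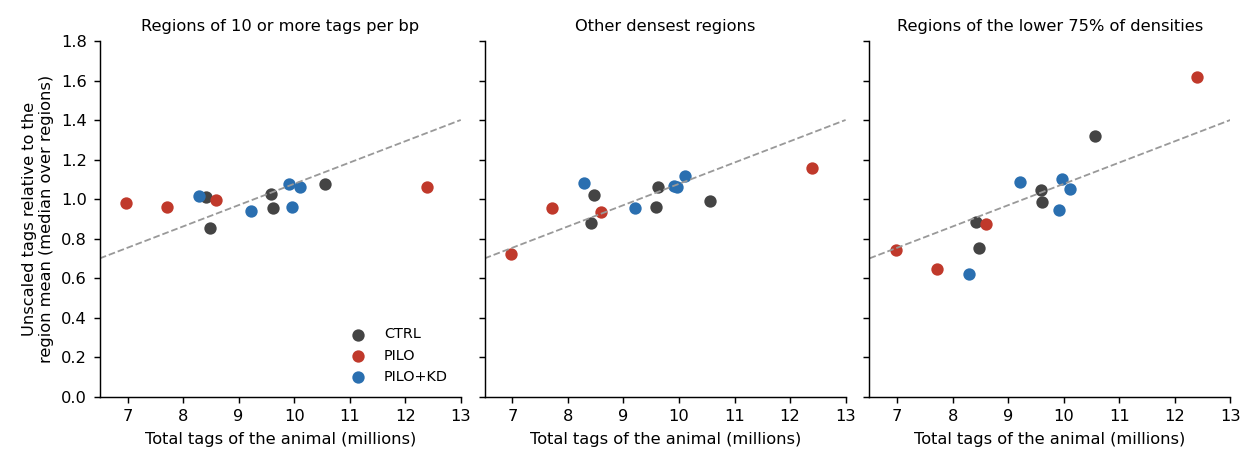
Unscaled tags of each animal, as the median over regions of the ratio to the mean of the region, plotted against the total tags of the animal for the 13 regions at 10 or more tags per bp, the other densest regions and tested regions of the lower 75 percent. Each point is an animal and the dashed line marks proportion to the total. In the 13 densest regions the points stay between 0.853 and 1.08. In the lower 75 percent they lie between 0.624 (PILO+KD replicate 1) and 1.62 (PILO replicate 3, the largest library), with the smallest library, PILO replicate 4, at 0.742.

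Levels of the first 3 regions of the ranking had their highest and lowest values in the same animals. In chr2:61089012-61090793 the CTRL animals had 234, 232, 239.8, 278 and 245 CPM. The PILO animals had 313, 191, 333 and 272 CPM, and the PILO+KD animals 319, 219, 231, 259 and 243 CPM. The 3 groups overlapped, with means of 246 ± 18.8 (SD, n = 5), 277 ± 62.7 (n = 4) and 254 ± 39.2 CPM (n = 5). The log2 fold change was 0.17 (SE 0.17) for PILO versus CTRL, 0.05 (SE 0.16) for PILO+KD versus CTRL and -0.12 (SE 0.17) for PILO+KD versus PILO, with unadjusted p values of 0.31, 0.76 and 0.465 in edgeR's quasi-likelihood test.

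In chr10:29081856-29082875, the second of the ranking, CTRL had 106, 108, 114, 132 and 115 CPM, PILO 145, 89.4, 156 and 131 CPM, and PILO+KD 147, 106, 108, 121 and 115 CPM. PILO replicate 4 was highest and PILO replicate 3 lowest in both regions. In the third region of the ranking, chr1:191883878-191885553, CTRL had 166, 172, 182, 205 and 177 CPM, PILO 229, 139, 248 and 204 CPM, and PILO+KD 234, 164, 175, 190.4 and 181 CPM. The groups overlapped again. Over the 13 regions at 10 or more tags per bp the smallest unadjusted p was 0.252 for PILO versus CTRL, 0.526 for PILO+KD versus CTRL and 0.448 for PILO+KD versus PILO (edgeR), and the SD of log2 CPM within groups lay between 0.218 and 0.249 in all of them.

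Levels over all densest regions were shifted up or down in several animals. The share of an animal's tags that fell into the densest regions was 7.61%, 9.10%, 9.70%, 8.46% and 8.12% in CTRL replicates 1 to 5. It was 9.96%, 7.47%, 8.46% and 8.79% in PILO replicates 2 to 5, and 10.6%, 8.68%, 8.35%, 8.48% and 8.71% in PILO+KD replicates 1 to 4 and animal 211. The means were 8.60% ± 0.820 (SD, n = 5), 8.67% ± 1.03 (n = 4) and 8.97% ± 0.938 (n = 5), and the groups overlapped. The widest 95% Wilson interval of a share, which covers counting error only, was that of PILO replicate 2 (9.94% to 9.98%), so that the spread between animals exceeded counting error.

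Expressed as the median deviation of log2 CPM from the mean of each region, the shift was 0.42 in PILO+KD replicate 1, 0.28 in PILO replicate 2 and 0.18 in CTRL replicate 3. It was -0.28 in PILO replicate 3, -0.23 in CTRL replicate 1 and -0.14 in CTRL replicate 5, and between -0.10 and 0.03 in the other 8 animals. The lowest TMM factor of the 14 libraries was that of PILO+KD replicate 1 (0.895) and the highest that of PILO replicate 3 (1.07), and the part of scaling in the shift was not tested. Median deviations ran from -0.21 to 0.30 in regions ranked between 1 and 5 percent. In the 459 other regions whose tag sum reached the median of the densest regions they ran from -0.22 to 0.28. Shifts of this kind were thus not particular to the densest regions. Tested regions of the lower 75 percent of densities had median deviations between -0.24 and 0.26. There the unscaled tags relative to the region mean were lowest in PILO+KD replicate 1 (0.624) and highest in PILO replicate 3 (1.62).

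**Figure D2:**
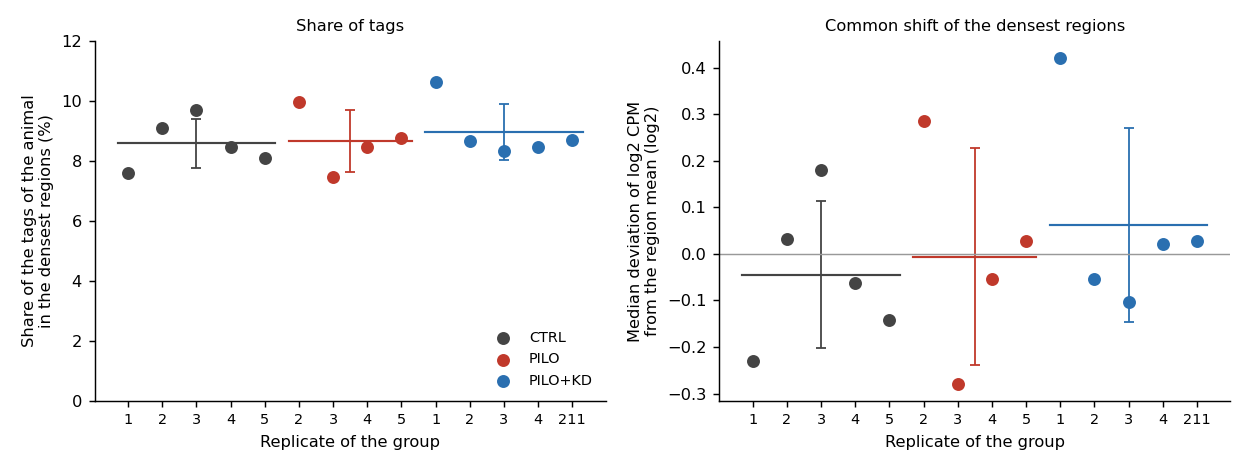
Share of the tags of each animal in the densest regions in percent (left) and median deviation of log2 CPM of these regions from their means (right), by group and replicate. Points are animals, horizontal lines are group means and bars are SDs. PILO+KD replicate 1 stands highest in both panels at 10.6% and 0.42, and the 3 groups overlap.

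The SD of log2 CPM within groups (11 residual degrees of freedom) had a median of 0.240 over the densest regions, with quartiles of 0.200 and 0.292. It was 0.248 in regions ranked between 1 and 5 percent and 0.299 between 5 and 25 percent. In the tested regions of the lower 75 percent (69641 of 219207) it was 0.470, and over all 155092 tested regions 0.362. Counting error alone would have given a median of 0.0943 in the densest regions and 0.415 in the tested regions of the lower 75 percent. The observed SD was thus 2.62 times the counting error in the densest regions and 1.16 times in those tested regions, as medians over regions. The 459 other regions whose tag sum reached the median of the densest regions had a median SD of 0.226. A spread of this size was thus not particular to the top 1 percent. These regions were also shorter than 2000 bp and hence of high density, so they cannot separate density from the number of tags.

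After the shift of each animal was subtracted the median SD of the densest regions fell to 0.139. In the 459 other regions of like tag sum it fell from 0.226 to 0.124, and between 1 and 5 percent from 0.248 to 0.217. Between 5 and 25 percent it was 0.30. The shift was taken in each set from the same regions whose SD is given. With offsets fitted to abundance by loess the median of the densest regions was 0.145. Within the densest regions density and spread were not ordered, with median SDs of 0.239, 0.246, 0.240 and 0.235 in 4 classes of rising density with nearly equal numbers of regions. An SD above 0.5 was seen in 89 densest regions (3.04%) and in 21.9% of all tested regions.

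**Figure D3:**
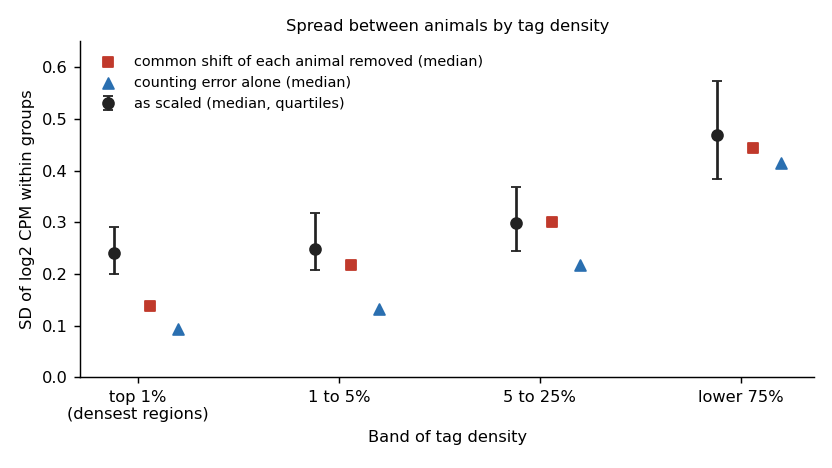
SD of log2 CPM within groups by band of tag density, for the tested regions of each band. Circles with bars are medians and quartiles over regions, squares are medians after the common shift of each animal was subtracted, and triangles are medians expected from counting error alone. The top 1 percent falls from 0.240 to 0.139 when the shift is removed, with counting error at 0.0943.

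The least variable of the densest regions was chr14:35829-37075, close to the start of the chromosome, with an SD of 0.0899. The CTRL animals had 30.6, 30.3, 26.4, 31.9 and 31.2 CPM, the PILO animals 25.6, 27.9, 29.9 and 27.5 CPM, and the PILO+KD animals 29.9, 27.5, 28.0, 26.8 and 29.6 CPM. No animal differed from another by more than 1.25 times. The next were chr17:72429612-72431580, with an SD of 0.0908 and levels between 35.2 and 46.6 CPM, and chr20:37898171-37899906, with an SD of 0.0964 and levels between 43.5 and 54.1 CPM. In chr14:35829-37075 PILO+KD replicate 1 was not the highest and PILO replicate 3 not the lowest animal. However, PILO+KD replicate 1 was the highest in chr17:72429612-72431580, and PILO replicate 3 was the lowest in chr20:37898171-37899906.

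The most variable was chr6:65209807-65210913, with an SD of 1.03. Levels were 29.6, 26.1, 41.5, 17.8 and 27.1 CPM in CTRL and 28.3, 15.2, 30.8 and 34.2 CPM in PILO. In PILO+KD they were 57.4, 33.6, 3.05, 32.3 and 21.4 CPM, and replicate 3 stood out with 27 tags where the other animals had 141 to 399. In chr17:63789940-63791426 (SD 1.01) levels ran from 9.95 CPM in PILO replicate 3 to 91.2 CPM in PILO+KD replicate 1, and within CTRL from 20.1 to 67.6 CPM. In chr1:56509641-56510343 (SD 0.838) the CTRL animals had 9.04, 7.16, 5.92, 21.9 and 5.12 CPM, the PILO animals 19.1, 6.82, 11.4 and 31.3 CPM and the PILO+KD animals 10.5, 11.3, 10.1, 37.5 and 17.8 CPM. High levels thus occurred in single animals of each group. The log2 fold change of this region was 0.80 (SE 0.39) for PILO versus CTRL and 0.84 (SE 0.36) for PILO+KD versus CTRL, and neither passed a cut-off of 0.01 in edgeR (p = 0.0466 and 0.0276, adjusted p = 0.968 and 1, exact permutation p = 0.198 and 0.151).

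Across the densest regions, log2 CPM of pairs of animals gave mean Pearson coefficients of 0.928 in the 10 CTRL pairs and 0.926 in the 6 PILO pairs. The mean was 0.883 in the 10 PILO+KD pairs (0.795 to 0.957) and 0.917 in the 65 pairs from different groups (0.774 to 0.971). The lowest coefficient, 0.774, was that of PILO+KD replicate 4 with CTRL replicate 2. PILO+KD replicate 4 had 0.795 and 0.802 with replicates 1 and 2 of its own group, and 0.957 with animal 211. These correlations are across regions, which are not independent replicates. Within a group, the tag counts of every pair of animals lay further apart than counting error allows (chi-square of at least 1.46 per degree of freedom), and none of the libraries was counted as a copy.

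The comparison of PILO with CTRL asked which regions gained or lost methylation in chronic epilepsy. Among the densest regions 1 passed the cut-off of an unadjusted p below 0.01 (0.0342%), where 1.19% of all tested regions did. It was higher in PILO, against a background of 0.713% of tested regions called higher, and no densest region was called lower, against 0.482%. At an unadjusted p below 0.05 it was 21 densest regions (0.718%), 14 higher and 7 lower, against 5.13% of all tested regions. No densest region had an adjusted p below 0.05 with edgeR, DESeq2 or limma-voom, and 0.00387% of all tested regions had one with edgeR. The smallest adjusted p of a densest region was 0.801.

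The region higher in PILO was chr13:36740433-36741140 (4.01 tags per bp, 707 bp), which was in the own top 1 percent of 12 animals. The PILO animals had 33.4, 26.7, 34.7 and 30.6 CPM. The CTRL animals had 27.3, 16.3, 7.21, 31.0 and 8.72 CPM, of which replicates 1 and 4 lay within the range of PILO. PILO+KD animals had 29.6, 24.0, 22.5, 25.9 and 15.5 CPM. The means were 31.4 ± 3.53 (SD, n = 4) in PILO, 18.1 ± 10.7 (n = 5) in CTRL and 23.5 ± 5.22 (n = 5) in PILO+KD, and PILO was 0.79 higher than CTRL on the log2 scale (SE 0.26, edgeR p = 0.0058, adjusted p = 0.801, exact two-sided permutation p = 0.0873, where 0.00794 is the smallest p that this design allows). The difference did not reach the cut-off without CTRL replicate 2, 3 or 5, with edgeR p values of 0.0124, 0.0212 and 0.0236, or without PILO replicate 2 or 4, with 0.0114 and 0.0165. It was also missed in the DESeq2 test, where p was 0.0428, and with loess offsets and with scaling on the densest regions, where p was 0.0133 and 0.0129.

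Levels of all PILO animals were separated from those of all CTRL animals in 3 densest regions (0.103%), against 2.01% of all tested regions. These regions, chosen after their values were seen, were lower in PILO. In chr11:12699512-12700399 PILO had 12.8 to 18.2 CPM (median 17.1) and CTRL 18.7 to 26.7 CPM (median 21.5), with a log2 fold change of -0.44 (SE 0.18). In chr18:20783708-20784877 PILO had 32.7 to 38.9 CPM and CTRL 40.8 to 52.3 CPM, with -0.34 (SE 0.15), and in chr17:53584701-53585965 PILO had 40.8 to 45.0 CPM and CTRL 45.8 to 53.4 CPM, with -0.17 (SE 0.14). None of these passed the cut-off, with edgeR p values of 0.0229, 0.03 and 0.221 and adjusted p values of 0.903, 0.925 and 1.

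The comparison of PILO+KD with CTRL asked how epileptic animals on the diet differed from controls. Here 2 densest regions passed the cut-off (0.0684%), against 0.92% of all tested regions. Both were higher in PILO+KD, against a background of 0.5% called higher, and none was lower, against 0.42%. With an unadjusted p below 0.05 there were 15 densest regions (0.513%), all higher in PILO+KD, against 4.22% of all tested regions. An adjusted p below 0.05 was reached by none of them with edgeR, DESeq2 or limma-voom, and by 0.00129% of all tested regions with edgeR.

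The region with the smaller p was chr9:105346731-105348652 (2.43 tags per bp), which was in the own top 1 percent of only 6 animals. CTRL had 34.4, 33.9, 35.7, 32.9 and 31.6 CPM, PILO 38.2, 26.6, 34.7 and 44.1 CPM, and PILO+KD 76.7, 37.6, 40.8, 44.3 and 40.7 CPM. All PILO+KD animals were above all CTRL animals, and replicate 1 was far above the other 4. The means were 48.0 ± 16.2 (SD, n = 5) and 33.7 ± 1.53 CPM (n = 5), and PILO+KD was 0.51 higher on the log2 scale (SE 0.17, edgeR p = 0.00567, adjusted p = 1, exact permutation p = 0.00794, the smallest two-sided p that this design allows). It was the only densest region whose PILO+KD and CTRL animals did not overlap (0.0342%, against 0.727% of all tested regions). Without PILO+KD replicate 1 the log2 fold change was 0.31 and p was 0.0458, and without CTRL replicate 2 or 5 p was 0.0104 and 0.0105. With flow cell as a term p was 0.0154, and without both PILO+KD replicate 1 and PILO replicate 3 it was 0.0276.

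The other region was chr11:12430324-12431419 (3.27 tags per bp), which was in the own top 1 percent of all 14 animals. CTRL had 25.9, 26.3, 30.4, 24.8 and 24.6 CPM, PILO 31.5, 24.7, 24.5 and 30.4 CPM, and PILO+KD 48.3, 32.3, 30.3, 31.5 and 33.2 CPM. Again the highest level was that of PILO+KD replicate 1, and replicate 3 of PILO+KD lay just below the highest CTRL animal. PILO+KD was 0.41 higher than CTRL on the log2 scale (SE 0.15, edgeR p = 0.00922, adjusted p = 1, exact permutation p = 0.0159). Without PILO+KD replicate 1 the log2 fold change was 0.30 and p was 0.0432. Without animal 211 p was 0.012, and without CTRL replicate 1, 2, 4 or 5 it lay between 0.0169 and 0.0178. With flow cell as a term p was 0.0133, with the replicate block 0.0189, and without both PILO+KD replicate 1 and PILO replicate 3 it was 0.0353.

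The comparison of PILO+KD with PILO, both epileptic, asked what differed with the diet. In it 1 densest region passed the cut-off (0.0342%), against 0.351% of all tested regions. It was higher in PILO+KD, against 0.151% of tested regions called higher, and none was lower, against 0.201%. With an unadjusted p below 0.05 there were 11 densest regions (0.376%), 10 higher and 1 lower, against 2.3% of all tested regions. With an adjusted p below 0.05 there was none with edgeR, DESeq2 or limma-voom, and 0% of all tested regions reached it with edgeR.

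This region was chr1:66204031-66205721 (2.47 tags per bp), which was in the own top 1 percent of only 5 animals. PILO had 39.1, 22.8, 22.2 and 30.3 CPM and PILO+KD 47.2, 51.4, 40.8, 32.2 and 34.1 CPM, with an overlap through PILO replicate 2. CTRL had 36.2, 40.1, 39.3, 27.1 and 24.0 CPM and lay between the other groups, with a mean of 33.3 ± 7.33 (SD, n = 5) against 28.6 ± 7.90 (n = 4) and 41.1 ± 8.23 (n = 5). PILO+KD was 0.53 higher than PILO on the log2 scale (SE 0.19, edgeR p = 0.00871, adjusted p = 1, exact permutation p = 0.0635). The cut-off was missed without PILO replicate 3, 4 or 5, with edgeR p values of 0.0422, 0.0341 and 0.0111, and without PILO+KD replicate 1 or 2, with 0.0125 and 0.0336. It was also missed with the replicate block, where p was 0.0106, and without both PILO+KD replicate 1 and PILO replicate 3, where p was 0.0534.

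Levels of PILO+KD and PILO were separated in 6 densest regions (0.205%), against 0.746% of all tested regions, and all 6 were higher in PILO+KD. They were singled out after their values were seen. On chromosome 7 lay 4 of them. In chr7:17044476-17045732 PILO+KD had 31.0 to 44.6 CPM and PILO 20.8 to 28.3 CPM, with a log2 fold change of 0.49 (SE 0.18). In chr7:17267792-17269088 the ranges were 31.8 to 44.7 and 20.96 to 31.2 CPM, with 0.45 (SE 0.18). Values of 0.38 (SE 0.17) and 0.33 (SE 0.17) were found in chr7:18485461-18487414 and chr7:18523285-18524557. The remaining regions were chr11:12425749-12426997 with 0.25 (SE 0.14) and chr4:27970806-27971760 with 0.22 (SE 0.14). None of the 6 passed the cut-off, with edgeR p values from 0.0117 to 0.127 and adjusted p values of 1.

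**Figure D4:**
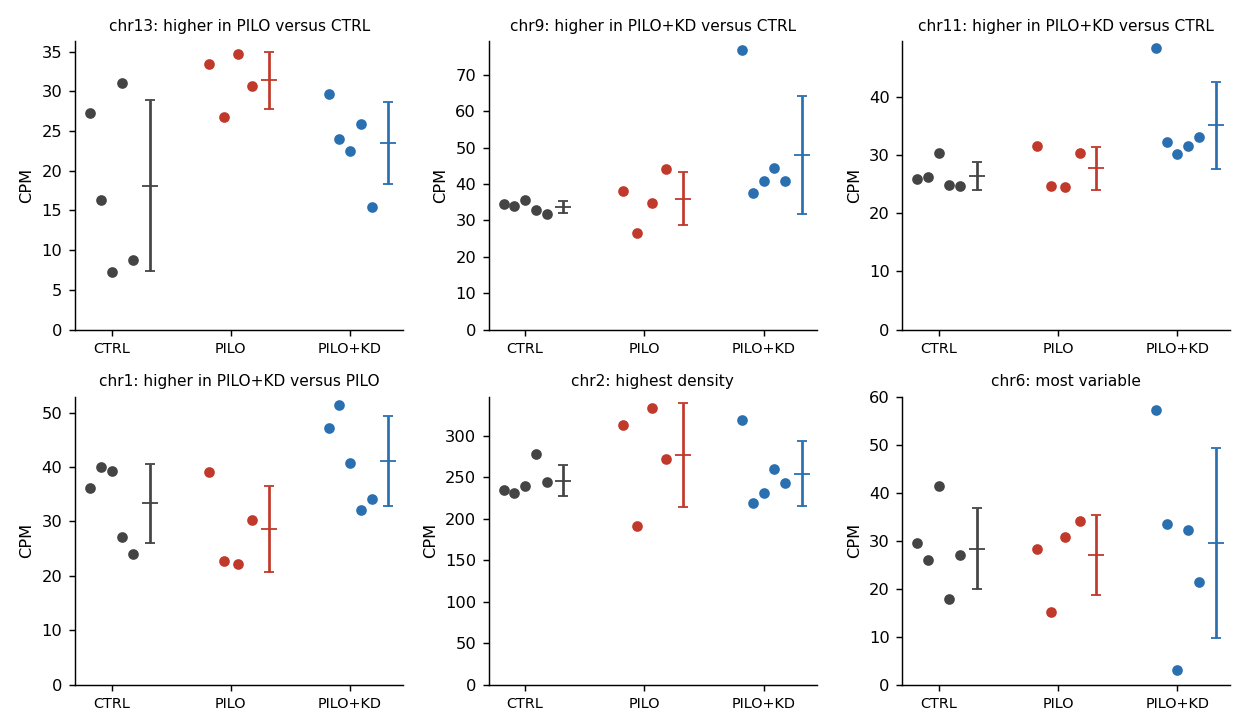
Levels in CPM in each animal for the 4 densest regions with an unadjusted p below 0.01 in a contrast, for the region of highest density and for the most variable region, named by chromosome. Points are animals, and the mark with a bar beside them is the group mean with its SD. PILO+KD replicate 1 has the highest level in the chr9, chr11 and chr6 regions, at 76.7, 48.3 and 57.4 CPM.

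Fold changes of the densest regions were small and more often above 0 than below. The median log2 fold change was 0.03 for PILO versus CTRL, 0.10 for PILO+KD versus CTRL and 0.07 for PILO+KD versus PILO. Over all tested regions the medians were 0.0038, 0.0077 and 0.0050. In regions ranked between 1 and 5 percent they were 0.0028, 0.057 and 0.057. In the 459 other regions of like tag sum they were 0.033, 0.058 and 0.022, so that medians above 0 were not particular to the densest regions. The log2 fold change was above 0 in 1806 (61.8%), 2506 (85.7%) and 2407 (82.3%) of the 2923 densest regions. Of all tested regions, 50.6%, 51.4% and 51.0% were above 0. The contrasts share groups, so that these values are not independent of each other. A log2 fold change of 0.5 or more in either direction was found in 6, 3 and 5 densest regions, up to 0.205% of them, whereas 10.7%, 8.29% and 7.19% of all tested regions had one. None of the densest regions changed by 1 or more on the log2 scale. The median SE was 0.16 for PILO versus CTRL in the densest regions, against 0.26 over all tested regions.

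The sign of the medians did not hold when single libraries were left out. For PILO versus CTRL the median was -0.06 without PILO replicate 2, -0.01 without CTRL replicate 1, 0.12 without PILO replicate 3 and 0.09 without CTRL replicate 3. For PILO+KD versus PILO it was -0.0045 without PILO+KD replicate 1, -0.02 without PILO replicate 3 and 0.19 without PILO replicate 2. For PILO+KD versus CTRL it stayed above 0, between 0.03 without PILO+KD replicate 1 and 0.18. Within the largest flow cell the medians were -0.05, -0.13 and -0.08 for the 3 contrasts, with 12, 0 and 6 densest regions past the cut-off. These were 0.411%, 0% and 0.205% of the densest regions, against 1.41%, 0.611% and 0.537% of all regions tested in that fit. Without PILO replicate 3, the library with the lowest levels, 15 densest regions passed the cut-off in PILO versus CTRL. This was 0.513% of them, against 1.43% of all regions tested in that fit.

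**Figure D5:**
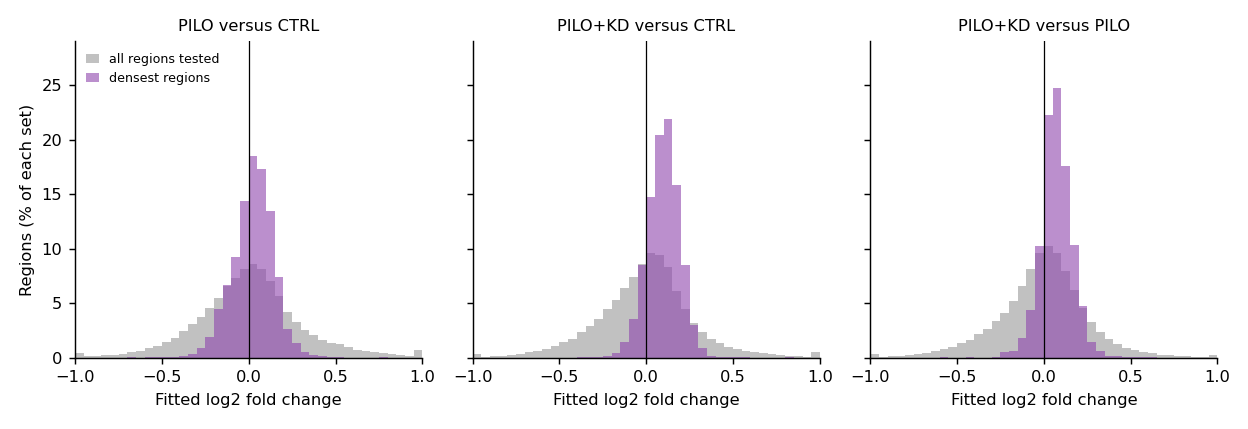
Distribution of fitted log2 fold changes in the 3 contrasts for the 2923 densest regions and for all 155092 tested regions, as percent of each set in bins of 0.05, with values beyond 1 placed in the outermost bins. The densest regions form a narrower peak, to the right of 0 in the contrasts of PILO+KD, with medians of 0.10 and 0.07.

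The bands below the densest regions held more calls. In regions ranked between 1 and 5 percent 36 of 11690 passed the cut-off in PILO versus CTRL (0.308%), 11 in PILO+KD versus CTRL (0.0941%) and 10 in PILO+KD versus PILO (0.0855%). Between 5 and 25 percent the shares were 0.987%, 0.665% and 0.281%, and in the tested regions of the lower 75 percent 1.69%, 1.33% and 0.493%. Of the 459 other regions with as many tags as the densest regions 6 passed the cut-off in PILO versus CTRL (1.31%), 2 in PILO+KD versus CTRL (0.436%) and 1 in PILO+KD versus PILO (0.218%). The differences between bands were not tested, since regions of the same animals are not independent.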

How the data were processed

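The deposited table holds whole-number counts of tags per region and animal, with no normalization, for 5 CTRL, 4 PILO and 5 PILO+KD rats. For each animal the authors enriched methylated fragments from 500 ng of DNA, obtained 36 bp single reads, placed them on rn4 with BWA, compared all pairs of samples with MACS 1.4.0, merged the regions with bedtools, removed duplicate reads and counted tags with a custom script. A region therefore entered the table only where 2 animals differed. Coordinates are printed as deposited, and whether starts count from 0 or 1 is not stated.

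Groups and replicate numbers came from the labels (animal 211 has none). Regions whose tags summed to less than 129, the 50th centile, were removed, which left 155092 of 310070 regions and all 2923 densest regions. Counts were scaled by TMM and fitted with edgeR 4.0.16 (R 4.3.3; quasi-likelihood F test, 14 animals, a mean per group, common dispersion 0.0382). Regions with an unadjusted p below 0.01 were counted as past the cut-off, and p values were adjusted over all tested regions by Benjamini-Hochberg. The SE of a log2 fold change was worked back from the F test, as its absolute value divided by the square root of F. CPM values are after TMM, with a prior count of 2 on the log2 scale. Single regions were also compared by two-sided exact permutation over the animals.

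Density bands divided the regions that met the conditions by rank. Named regions were the 8 densest, those past the cut-off (up to 3 in each direction and contrast), the 3 most and 3 least variable, and 3 on each side of the density limit. The densest regions and these lists were chosen with earlier results of these data known.

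Samples with the same replicate number came from different rats. Their deviations from the group means correlated between -0.286 and 0.283, so the numbers were not taken to pair the animals. Alternatives were other scalings, filters and tests (DESeq2 1.42.0, limma-voom in limma 3.58.1), flow cell, library size or replicate number as a term, each animal left out, and other definitions of the densest regions. Scaling on the densest regions and leaving out PILO+KD replicate 1 and PILO replicate 3 together were chosen after seeing the data.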

Additional observations from a re-analysis of the deposited data

Results flagged for a closer look

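Single animals stood apart from the rest of their group in 12 of 78 groups of values examined, by the gap of the highest or lowest animal to its neighbour (Dixon's ratio). Chance gives about 1 in 20 for values not chosen on the data. Some of these regions were named for their spread or a small p, so that rate does not apply to them. Many of these values come from the same libraries and are not independent.

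PILO+KD replicate 1 had 10.6% of its tags in the densest regions, while the other 4 animals of its group had 8.35% to 8.71%. Its median deviation of log2 CPM over these regions was 0.42, against -0.10 to 0.03 in the others. In chr9:105346731-105348652 it had 76.7 CPM, against 37.6 to 44.3 CPM, in chr11:12430324-12431419 48.3 CPM against 30.3 to 33.2 CPM, and in chr11:43763846-43764307, just outside the density limit, 21.9 CPM against 6.04 to 8.07 CPM.

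After scaling, CTRL replicate 4 was higher than the other CTRL animals in 3 of the regions of highest density. It had 278 CPM in chr2:61089012-61090793 (others 232 to 245), 204 CPM in chr6:91379224-91381113 (others 172 to 181) and 151 CPM in chr3:148550423-148551819 (others 123 to 129.6). Its unscaled tags in these regions, 2198, 1616 and 1196, lay within the range of the other CTRL animals. CTRL replicate 4 had the smallest library of its group (8411986 tags). In chr1:56509641-56510343 it had 21.9 CPM, against 5.12 to 9.04 CPM in the other CTRL animals, and in the same region PILO+KD replicate 4 had 37.5 CPM, against 10.1 to 17.8 CPM in its group.

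CTRL replicate 3 had 30.4 CPM in chr11:12430324-12431419, above the 24.6 to 26.3 CPM of the other CTRL animals, and 26.4 CPM in chr14:35829-37075, below the 30.3 to 31.9 CPM of the others.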

How the results depend on the processing

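No densest region reached an adjusted p below 0.05 in any of the 33 alternatives run for each contrast, and in all of them the share of densest regions past the cut-off was below that of all tested regions. The counts past the cut-off were 1, 2 and 1 for PILO versus CTRL, PILO+KD versus CTRL and PILO+KD versus PILO, and such small counts moved with most choices. In the same order they were 6, 3 and 2 with scaling to total tags, 1, 1 and 1 with DESeq2's size factors, 10, 4 and 3 with loess offsets, 5, 4 and 3 when each animal had to have 10 tags or more, 0, 2 and 2 with the DESeq2 test, 2, 2 and 3 with limma-voom, 12, 0 and 6 within the largest flow cell, 3, 0 and 4 with flow cell as a term, 3, 6 and 4 with log2 total tags as a term, and 7, 1 and 2 with only the groups compared. With the replicate block, which rests on shared numbers and not on paired animals, they were 3, 1 and 0. Of the animals with a partner, 3 of 8, 2 of 8 and 4 of 6 correlated best with their own number. With other definitions they were 1, 1 and 0 for the top 0.5 percent, 10, 8 and 5 for the top 2 percent, 2, 1 and 1 for density from the group not compared and 2, 1 and 0 with no limit on length. With the settings chosen after seeing the data they were 3, 2 and 2 with scaling on the densest regions, and 22, 2 and 7 without PILO+KD replicate 1 and PILO replicate 3. Leaving out single animals gave 0 to 15, 0 to 7 and 0 to 8. For PILO versus CTRL the count was 5, 0, 0, 4 and 2 without CTRL replicates 1 to 5, 2, 15 and 3 without PILO replicates 2, 3 and 5, and 3 without PILO+KD replicate 1. For PILO+KD versus CTRL it was 7 without PILO+KD replicate 3, 0 without CTRL replicate 5, and 1 without CTRL replicate 1 or 2 or animal 211. For PILO+KD versus PILO it was 8 without PILO replicate 2, 5 without PILO+KD replicate 4, 0 without PILO replicate 4 or PILO+KD replicate 2, and 2 without CTRL replicate 1, 2, 3 or 5, PILO replicate 3 or 5 or PILO+KD replicate 3. The cause of these changes was not tested.

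Median log2 fold changes lay within 0.200, the SD of the animal shifts, of the reported values of 0.03, 0.10 and 0.07 in every alternative except PILO+KD versus CTRL within the largest flow cell, where the median was -0.13. This margin was larger than the reported values themselves, so a median of the opposite sign could lie within it, and it does not show that the medians were stable. The medians ran from -0.06 to 0.12, from -0.13 to 0.18 and from -0.09 to 0.19, and were below 0 in 4, 1 and 4 of 33 alternatives. The median SD within groups was 0.145 with loess offsets and 0.146 with scaling on the densest regions, and between 0.187 and 0.273 in the other alternatives. The 4 regions past the cut-off kept their direction in all 21 alternatives run for each and missed the cut-off in 8 (chr13), 5 (chr9), 9 (chr11) and 7 (chr1) of them.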

Other observations

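Near the density limit, chr7:135058821-135060792 had levels from 16.6 CPM in PILO replicate 2 to 67.8 CPM in CTRL replicate 5, with 17.1 to 67.8 CPM within CTRL, 16.6 to 59.3 CPM within PILO and 25.7 to 63.7 CPM within PILO+KD. Its SD of log2 CPM within groups was 0.689. In chr12:12291994-12293227, also just inside the limit, levels ran from 18.2 CPM in PILO replicate 4 to 40.3 CPM in PILO+KD replicate 1.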
